A study of Mus musculus with 14 samples.

Results

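The receptor for erythropoietin (EPO) and genes for the proteins that act beside it at the membrane were followed over 14 Affymetrix mouse arrays of cultured bone marrow erythroid progenitors. Members were all probe sets that the platform annotation gives to Epor, Jak2, Stat5a, Stat5b, Gab1, Gab2, Irs2, Pik3cb, Lyn or Ptpn6 alone. The rule used no measured value, but the genes were chosen with earlier results of these data known. It found 17 of the 45037 probe sets tested and 9 of the 10 genes listed. No probe set names Lyn, a Src family kinase, which was not analysed here. Gab1 and Gab2 had 3 probe sets each, Jak2, Stat5a, Stat5b and Ptpn6 had 2 each, and Epor, Irs2 and Pik3cb had 1 each. Gab2, Irs2 and Pik3cb are also among the genes that the study singled out from these arrays, so their rises with EPO are not independent evidence.

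All marrow came from female wild-type C57Bl/6 mice of 8 to 12 weeks and was expanded in SP34ex medium, which per the study's methods held EPO itself along with stem cell factor, dexamethasone and estradiol. Stage E2 cells (proerythroblasts in the labels) were taken at day 3.5 by removing Lin+ and Kit+ cells and selecting CD71+ cells. Stage E1 cells (CFUe-like progenitors) were taken at day 3, per the labels, by removing Lin+ cells and selecting cells with both Kit and CD71. Cells of either stage were then kept for 5.5 h with no hematopoietic cytokine, for stage E1 in a medium that held insulin and transferrin, and given EPO at 4 U/mL or none for 90 min. This made 3 EPO-challenged and 3 unchallenged arrays of stage E2, and 4 EPO-challenged and 4 unchallenged arrays of stage E1. The unchallenged cells had therefore met EPO during expansion, and all comparisons are of EPO returned against EPO still withheld.

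EPO holds its paired receptors in an active arrangement, and the kinase JAK2 that rides on them phosphorylates their cytoplasmic tails. STAT5A and STAT5B bind those tails, are phosphorylated in turn and move to the nucleus to activate transcription. Docking proteins of the GAB and IRS families collect other signalling enzymes at the receptor, among them phosphoinositide 3-kinase, while the phosphatase SHP-1, the product of Ptpn6, removes phosphate from the complex. In marrow this pathway keeps late erythroid progenitors alive and dividing.

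Values are on a log2 scale from which 1 constant per probe set had been taken away before deposit. A value of 0 is therefore no level, and only differences between arrays of the same probe set can be read. The arrays of the 2 stages differed widely in the RNA of cell type markers. In the study, flow cytometry and marker transcripts were given as evidence of the high purity of stage E1 cells. Its myeloid markers were Mac1 (Itgam) and Csf1r, while most genes of the list used here are others. As levels cannot be read, the medians below cannot be set against that purity. The median of 12 neutrophil and monocyte probe sets (Mpo, Elane, S100a8 and others) lay between -0.08 and -0.05 on EPO-challenged and between -0.06 and -0.04 on unchallenged E2 arrays, against 4.80 to 5.60 on EPO-challenged and 5.26 to 5.89 on unchallenged E1 arrays. Of these 12 probe sets, 8 were lower in stage E2 in both stage comparisons and 0 were higher. The median of 12 erythroid probe sets ran from 0.0027 to 0.158 in stage E2 and from -2.59 to -1.89 in stage E1. The early progenitor median (Kit, Cd34, Gata2, Myb) was at most 0.0027 in stage E2 and at least 1.98 in stage E1, 3 of 5 mast cell and basophil probe sets were lower in E2, and 5 of 6 megakaryocyte probe sets were higher in E2. B, T and NK cell medians stayed within 0.04 of 0 on every array. No probe set of these lists passed the test for EPO apart from Gata2 1450333_a_at, which was higher with EPO in stage E2 (0.58, SE 0.09). In bulk RNA, fewer cells of a type and less RNA per cell cannot be told apart, and the part of cell composition in the stage differences given here was not tested.

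**Figure D1:**
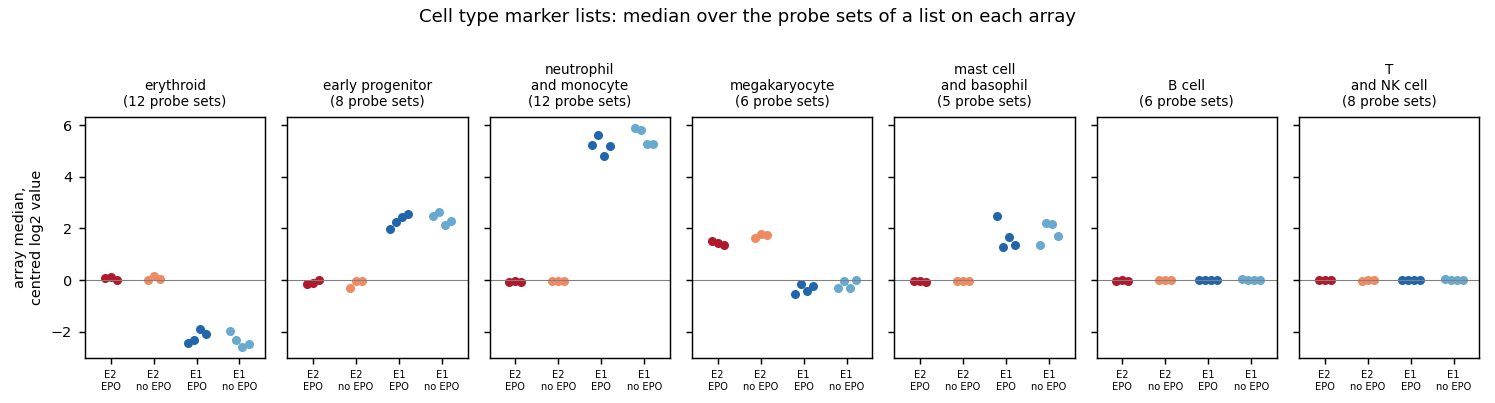
Median centred log2 value over the probe sets of each marker list on each array, with the 4 groups along the x axis and 1 point per array. Neutrophil and monocyte markers lie at 4.80 or more on every E1 array and near 0 on every E2 array, and erythroid and megakaryocyte markers are higher in E2. EPO-challenged and unchallenged arrays of a stage mostly lie close together, but megakaryocyte medians in E2 are lower with EPO (1.36 to 1.50) than without (1.64 to 1.80).

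Returning EPO raised 2 of the 17 member probe sets in stage E2, those of Irs2 and Pik3cb, where 4.62% of all probe sets passed the test and 2.54% passed it as higher. In stage E1 it raised 3 of the 17, those of Gab2, Irs2 and Pik3cb, where 1.16% of all probe sets passed and 0.804% passed as higher (adjusted p under 0.05 in limma's moderated test, two-sided, with Benjamini-Hochberg adjustment over all probe sets). No member passed as lower, as 2.08% of all probe sets did in E2 and 0.36% in E1. By unadjusted p under 0.05, 6 members passed in E2 and 7 in E1. The arrays of the 2 treatments did not overlap for 7 of the 17 in stage E2 (23.1% of all probe sets) and for 7 of the 17 in stage E1 (5.58% of all). In E2 4 of these were higher with EPO (9.42% of all) and 3 lower (13.7% of all), and in E1 4 were higher (3.28% of all) and 3 lower (2.3% of all). In both stages the 3 lower ones were both Jak2 probe sets and Ptpn6 1460188_at. The members' median log2 change was -0.10 in E2 and 0.02 in E1, against -0.0049 in E2 and -0.0047 in E1 over all probe sets. These tests were unpaired. With the replicate number as a block, 1 member (Pik3cb) passed in E2, where 264 of all probe sets passed as higher and 153 as lower. In E1 0 members passed with the block, where 44 of all passed as higher and 17 as lower.

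**Figure D2:**
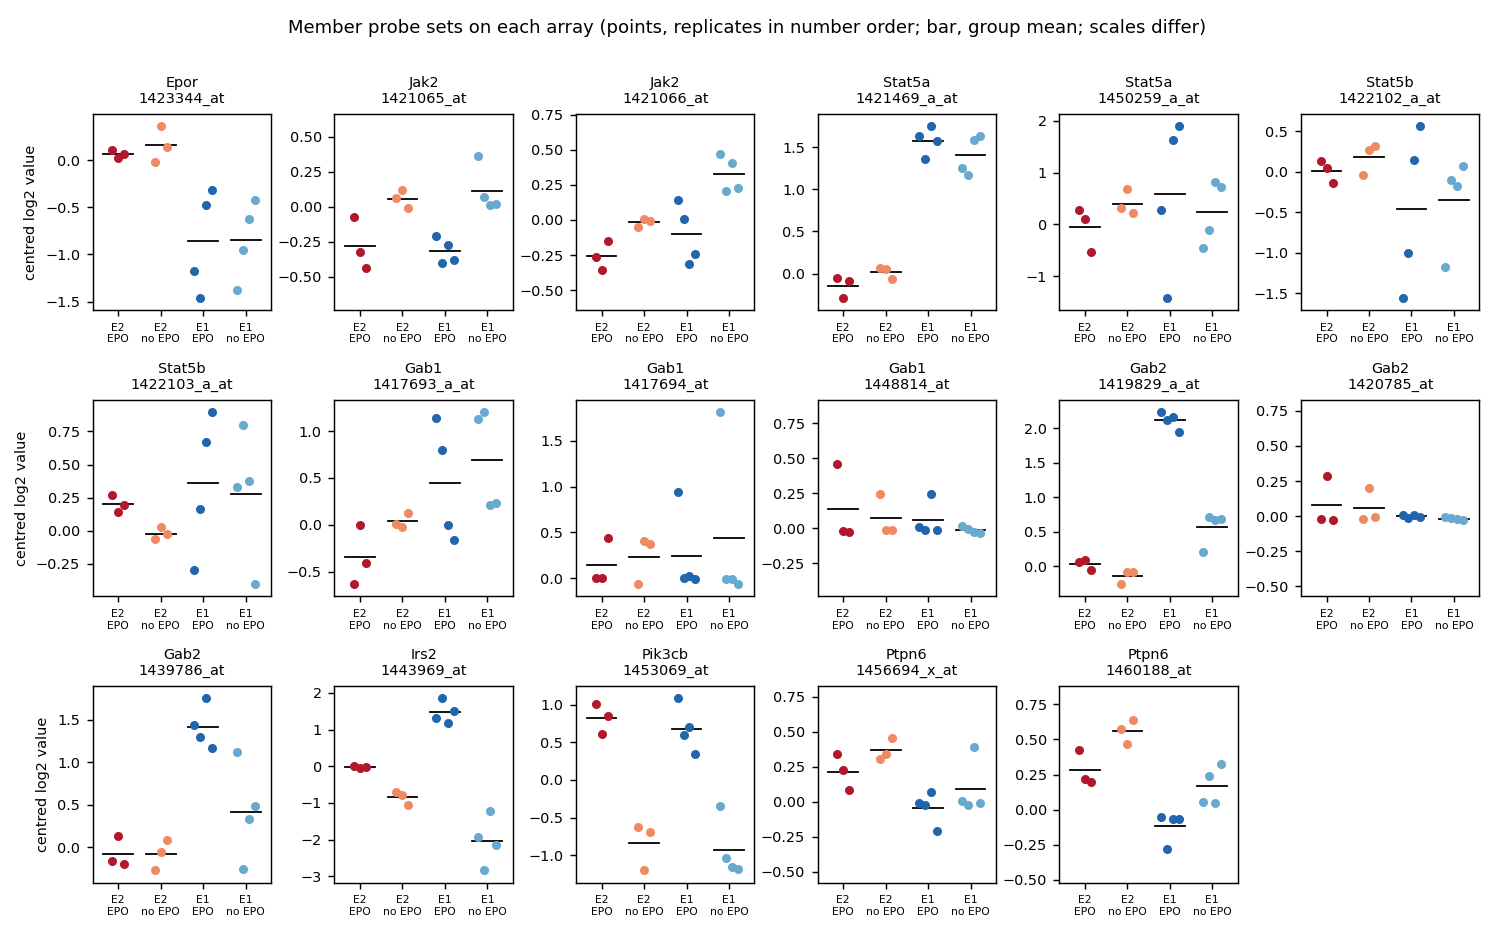
Centred log2 value of each of the 17 member probe sets on each of the 14 arrays, with the 4 groups along the x axis, points for arrays and a bar for the group mean, on a scale of its own per panel. EPO-challenged arrays of Irs2 and Pik3cb lie above the unchallenged ones in both stages, those of Gab2 1419829_a_at differ by 0.17 in E2 and by 1.56 in E1, and Epor and Stat5a 1421469_a_at separate by stage.

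Epor, the receptor itself, did not pass the test for EPO in either stage and was higher in stage E2 than in stage E1. In stage E2 its probe set 1423344_at read 0.11, 0.02 and 0.07 on EPO-challenged arrays, against -0.02, 0.36 and 0.14 on unchallenged ones. In stage E1 it read -1.18, -1.46, -0.47 and -0.32 on EPO-challenged arrays, against -1.38, -0.95, -0.62 and -0.42 on unchallenged ones. Every E2 array lay above every E1 array, while the treatments overlapped within each stage and replicates 3 and 4 stood above replicates 1 and 2 in both E1 groups. With EPO the difference between stages was 0.92 (SE 0.29), a fold of 1.89 (adjusted p = 0.0393), and without EPO it was 1.01 (SE 0.29), a fold of 2.01 (adjusted p = 0.0275, limma on all 14 arrays). Leaving out 1 array ended the call with EPO in 9 of 14 fits (any E2 array, EPO-challenged E1 replicate 1 or 2, or unchallenged E1 replicate 2; adjusted p at most 0.109) and the call without EPO in 5 of 14 (any unchallenged E2 array, or unchallenged E1 replicate 1 or 2; at most 0.107). The difference for EPO was -0.10 (95% interval -0.37 to 0.17) in E2 and -0.01 (-0.79 to 0.76) in E1, so that in E1 any change between 0.580-fold and 1.69-fold lay within the interval.

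The bases upstream of the Epor start are shown because Epor was higher on every E2 array than on every E1 array and because its product starts the pathway. They are the 250 bases before the RefSeq start on GRCm38.p6, minus strand, chr9:21963577-21963826, and capitals mark AGATAA, the letters bound by GATA factors, here read from the other strand as TTATCT, and GGGCGG, a GC box, here read as CCGCCC.
Epor: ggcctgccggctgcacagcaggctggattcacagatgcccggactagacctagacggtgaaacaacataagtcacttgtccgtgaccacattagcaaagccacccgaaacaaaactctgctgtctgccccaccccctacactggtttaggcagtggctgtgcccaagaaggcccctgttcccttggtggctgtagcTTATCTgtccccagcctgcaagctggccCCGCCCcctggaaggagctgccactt
The AGATAA match begins 54 bases and the GC box 26 bases before the start. AGATAA was in 9.99% of the 32851 promoter windows of the same length in the RefSeq table, on either strand, and GGGCGG in 32.7%.

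Jak2, the kinase that carries the signal from the receptor, was lower on every EPO-challenged array than on every unchallenged one for both of its probe sets and in both stages, without passing the test. In stage E2, 1421065_at read -0.07, -0.32 and -0.44 with EPO, against 0.06, 0.12 and -0.01 without. In stage E1 it read -0.21, -0.40, -0.27 and -0.38 with EPO, against 0.36, 0.07, 0.01 and 0.02 without. Its difference was -0.33 (SE 0.10, adjusted p = 0.205) in E2 and -0.43 (SE 0.09, adjusted p = 0.105) in E1. The second probe set, 1421066_at, read -0.27, -0.36 and -0.15 with EPO, against -0.05 to 0.01 without, in stage E2, and 0.14, 0.01, -0.31 and -0.24 with EPO, against 0.47, 0.21, 0.41 and 0.23 without, in stage E1. Its difference was -0.24 (SE 0.06, adjusted p = 0.108) in E2 and -0.43 (SE 0.12, adjusted p = 0.230) in E1. Both probe sets passed in stage E1 when the spread was taken from all 14 arrays (adjusted p = 0.0262 for 1421065_at and 0.0375 for 1421066_at) or with array weights, which in stage E2 also called 1421066_at (adjusted p = 0.0493). Between stages, 1421066_at was lower in E2 without EPO (-0.34, SE 0.11, adjusted p = 0.0422, lost in 7 of 14 fits that left out 1 array, namely any unchallenged E2 array, EPO-challenged E2 replicate 1 or 2, or unchallenged E1 replicate 1 or 3, with an adjusted p of at most 0.126), and neither probe set passed with EPO, although 1421066_at did when the 14 arrays were quantile-normalized (-0.50, adjusted p = 0.0204).

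The STAT5 genes, whose products take the signal to the nucleus, did not pass the test for EPO, and 1 of their 4 probe sets passed between stages. Stat5a 1421469_a_at read -0.05, -0.29 and -0.09 on EPO-challenged and 0.06, 0.05 and -0.06 on unchallenged E2 arrays, and 1.63, 1.35, 1.75 and 1.57 on EPO-challenged and 1.26, 1.17, 1.59 and 1.63 on unchallenged E1 arrays. All E2 arrays lay below all E1 arrays. It was 3.30-fold lower in E2 with EPO (-1.72, SE 0.12, adjusted p = 2.06e-06) and 2.63-fold lower without (-1.39, SE 0.12, adjusted p = 1.14e-05). Both calls were kept whichever array was left out. The other Stat5a probe set, 1450259_a_at, which the annotation ties to the same transcript accession, did not separate the stages: it ran from -0.53 to 0.29 on EPO-challenged and from 0.22 to 0.68 on unchallenged E2 arrays, and from -1.43 to 1.90 on EPO-challenged and from -0.46 to 0.81 on unchallenged E1 arrays. Its stage difference was -0.64 with EPO (SE 0.68, 95% interval -2.14 to 0.86) and 0.16 without (SE 0.68, -1.34 to 1.66). Stat5b 1422103_a_at read 0.27, 0.14 and 0.19 with EPO in stage E2, against -0.06, 0.03 and -0.03 without (0.22, SE 0.04, adjusted p = 0.0622), and it overlapped between treatments in E1 (0.08, SE 0.34). Stat5b 1422102_a_at overlapped in every comparison, with E1 arrays spread from -1.56 to 0.57 with EPO and from -1.18 to 0.07 without.

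Gab1, a docking protein that binds GRB2 and the phosphatase SHP-2, showed no change that passed the test in any of its 3 probe sets. The probe set with the widest span of group means, 1417693_a_at, read -0.64, -0.0033 and -0.41 with EPO and 0.0033, -0.03 and 0.13 without in stage E2, and 1.14, 0.80, -0.01 and -0.16 with EPO and 1.13, 1.20, 0.21 and 0.23 without in stage E1. Replicates 1 and 2 were the high arrays of both E1 groups, and replicates 3 and 4 lay between -0.16 and 0.23. Its stage difference was -0.79 with EPO (SE 0.35, adjusted p = 0.135) and -0.66 without (SE 0.35, adjusted p = 0.196). The neutrophil and monocyte median was also higher on unchallenged E1 replicates 1 and 2 (5.89 and 5.79) than on replicates 3 and 4 (5.26 each), and on EPO-challenged E1 arrays it was 5.23, 5.60, 4.80 and 5.17 in replicate order, and its part in the Gab1 values was not tested. The other Gab1 probe sets stayed between -0.07 and 0.46 apart from replicate 1 of 1417694_at in stage E1, at 0.94 with EPO and 1.81 without.

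Gab2, a related docking protein prominent in blood cells, rose with EPO in stage E1 and was lower in stage E2 than in E1. Probe set 1419829_a_at read 2.24, 2.12, 2.17 and 1.96 on EPO-challenged E1 arrays, against 0.20, 0.71, 0.67 and 0.68 on unchallenged ones, so that the 4 challenged arrays stood more than 1 log2 unit above all others. The rise was 1.56 (SE 0.13), 2.94-fold (adjusted p = 0.00436), and a fit blocked on replicate number gave an adjusted p of 0.0880. In stage E2 it read 0.06, 0.10 and -0.06 with EPO, against -0.26, -0.08 and -0.08 without. The E2 difference of 0.17 (95% interval -0.01 to 0.36) did not pass (adjusted p = 0.334). The EPO effect in E2 was smaller than in E1 (difference -1.38 on the log2 scale, SE 0.17, adjusted p = 0.00605 over all 14 arrays; with the replicate block, 0.111). Of the 17 members, 2 passed this test of the difference in EPO effect, both as smaller in E2, against 0.415% of all probe sets and 0.235% as smaller.

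A second Gab2 probe set, 1439786_at, ran the same way with more spread. It read 1.44, 1.29, 1.75 and 1.17 with EPO in stage E1, against 1.12, -0.25, 0.33 and 0.48 without (0.99, SE 0.29, adjusted p = 0.268, or 0.0485 with the spread of all 14 arrays), and -0.16, 0.13 and -0.19 with EPO in stage E2, against -0.27, -0.06 and 0.09 without (0.0048, SE 0.13). The fit on all 14 arrays draws on the smaller spread of E2. The SD of this probe set was 0.18 in both E2 groups, against 0.25 with EPO and 0.56 without in E1. The E1 treatments did not overlap, but unchallenged replicate 1 reached 1.12, close under the lowest challenged array. The third, 1420785_at, varied by 0.32 over all 14 arrays and gave no difference in any comparison. Between stages, 1419829_a_at was 4.26-fold lower in E2 with EPO (-2.09, SE 0.12, adjusted p = 3.76e-07) and 1.63-fold lower without (-0.71, SE 0.12, adjusted p = 0.00115), and 1439786_at was 2.81-fold lower with EPO (-1.49, SE 0.26, adjusted p = 0.00147) and did not pass without (-0.50, SE 0.26, adjusted p = 0.191).

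Irs2, a docking protein best known from insulin and interleukin-4 signalling, had the largest EPO response among the members in stage E1 and a smaller one in stage E2. Probe set 1443969_at read 0.0068, -0.05 and -0.01 on EPO-challenged E2 arrays, against -0.69, -0.78 and -1.04 on unchallenged ones. In stage E1 it read 1.32, 1.86, 1.19 and 1.50 with EPO, against -1.93, -2.84, -1.23 and -2.14 without. The treatments were fully apart in both stages, and the lowest and highest values of all 14 arrays were the unchallenged and challenged arrays of E1. In E2 the rise was 0.82 (SE 0.10), 1.77-fold (adjusted p = 0.0211). In E1 it was 3.50 (SE 0.34), 11.3-fold (adjusted p = 0.00802; with the replicate block, 0.122). Leaving out 1 E2 array ended the E2 call in 4 of 6 fits, for each EPO-challenged array and for unchallenged replicate 2, with an adjusted p of at most 0.0808.

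The stages stood in opposite order for Irs2 with and without EPO. With EPO, E2 arrays were 2.80-fold below E1 arrays (-1.48, SE 0.30, adjusted p = 0.00354), and without EPO they were 2.29-fold above them (1.20, SE 0.30, adjusted p = 0.0139; 0.0565 without unchallenged E2 replicate 1 and 0.0517 without replicate 2). The EPO effect in E2 was smaller than in E1 (difference -2.68 log2 units, SE 0.42, adjusted p = 0.0234; with the replicate block, 0.192), a call that was lost in 6 of 14 fits that left out 1 array (any EPO-challenged E2 array, unchallenged E2 replicate 1 or 2, or EPO-challenged E1 replicate 4; adjusted p at most 0.0708). The order without EPO turned round when the 14 arrays were quantile-normalized together (-0.54, adjusted p = 0.118). Before that normalization the SD over all probe sets was 0.259 to 0.295 on E2 arrays and 0.633 to 0.736 on E1 arrays. The setting gives every array the same distribution of values that are centred per probe set. It therefore rescales the stages against each other and cannot decide this order or the difference in EPO effect. In that setting the difference in EPO effect was -0.53 for Irs2 (adjusted p = 0.599) and -0.72 for Gab2 1419829_a_at (adjusted p = 0.101).

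Pik3cb encodes the p110-beta catalytic subunit of phosphoinositide 3-kinase, and it was the member whose rise with EPO was called in both stages with nearly equal estimates. Probe set 1453069_at read 1.02, 0.61 and 0.85 on EPO-challenged E2 arrays, against -0.63, -1.20 and -0.69 on unchallenged ones. In stage E1 it read 1.09, 0.59, 0.70 and 0.35 with EPO, against -0.35, -1.03, -1.16 and -1.18 without. Every challenged array lay above 0 and every unchallenged one below 0, whatever the stage. The rise was 1.67 (SE 0.20), 3.17-fold, in E2 (adjusted p = 0.0217) and 1.61 (SE 0.23), 3.06-fold, in E1 (adjusted p = 0.0319; with the replicate block, 0.0502). The difference between the effects was 0.05, with a 95% interval from -0.68 to 0.79, which is 0.622-fold to 1.73-fold. Leaving out 1 array ended the E2 call in 5 of 6 fits, all but unchallenged replicate 2 (adjusted p at most 0.0788), and the E1 call in 7 of 8, all but unchallenged replicate 1 (at most 0.112), with rises of 1.48 to 1.77 in E2 and 1.48 to 1.81 in E1. The E1 call was also lost when the E1 arrays were quantile-normalized (adjusted p = 0.0761). With all 14 arrays quantile-normalized together the effects differed between stages (2.12, adjusted p = 0.0177). That setting puts E2 and E1 arrays of unlike SD on the same distribution, so it cannot decide whether the effects differ.

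The upstream bases of Irs2 and Pik3cb are shown because these were the members that rose with EPO in both stages and had an entry in the RefSeq table. Each is the 250 bases before the start on GRCm38.p6, minus strand, at chr8:11008930-11009179 for Irs2 and chr9:99140212-99140461 for Pik3cb, and capitals mark the GC box GGGCGG.
Irs2: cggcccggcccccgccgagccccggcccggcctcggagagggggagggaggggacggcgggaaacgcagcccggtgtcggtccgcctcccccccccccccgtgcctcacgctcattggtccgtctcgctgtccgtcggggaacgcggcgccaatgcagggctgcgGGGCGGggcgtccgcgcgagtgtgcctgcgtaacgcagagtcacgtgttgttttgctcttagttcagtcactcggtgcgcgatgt
Pik3cb: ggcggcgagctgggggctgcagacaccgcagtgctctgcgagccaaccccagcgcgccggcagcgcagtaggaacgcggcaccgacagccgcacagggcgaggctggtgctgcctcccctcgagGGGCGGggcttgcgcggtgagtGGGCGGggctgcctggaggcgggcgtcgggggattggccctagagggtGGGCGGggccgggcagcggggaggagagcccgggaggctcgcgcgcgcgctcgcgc
Irs2 held 1 GC box, beginning 85 bases before the start, and Pik3cb held 3, beginning 126, 104 and 56 bases before it. None of TTCNNNGAA, the letters of a STAT5-type site (in 7.02% of all windows on either strand), AGATAA and CCACACCC, a Krüppel-type site (in 3.2%), was in either window. Of the members, 8 had at least 1 window, 11 windows in all, and TTCNNNGAA was found in 1 of them, a Gab1 window, beginning 12 bases before the start. Neither match nor absence says whether a factor binds.

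Ptpn6, the gene for the phosphatase SHP-1, was lower with EPO on every array of both stages in 1 probe set, without passing the test, and was higher in stage E2 than in E1. Probe set 1460188_at read 0.43, 0.21 and 0.20 with EPO in stage E2, against 0.57, 0.47 and 0.64 without (-0.28, SE 0.08, adjusted p = 0.175). In stage E1 it read -0.05, -0.28, -0.07 and -0.07 with EPO, against 0.06, 0.24, 0.05 and 0.33 without (-0.29, SE 0.08, adjusted p = 0.270). The treatments did not overlap in either stage. E2 exceeded E1 1.32-fold with EPO (0.40, SE 0.09, adjusted p = 0.00646) and 1.31-fold without (0.39, SE 0.09, adjusted p = 0.00752), and both calls were kept whichever array was left out. The second probe set, 1456694_x_at, was higher in E2 by 0.26 with EPO (SE 0.11, adjusted p = 0.111) and by 0.28 without (SE 0.11, adjusted p = 0.0903), and passed both when unchallenged E1 replicate 3, at 0.39, was left out or the arrays were quantile-normalized (adjusted p = 0.0147 with EPO and 0.00262 without). SHP-1 is abundant in neutrophils, whose markers were lower in E2, and the part of cell composition in the Ptpn6 values was not tested.

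**Figure D3:**
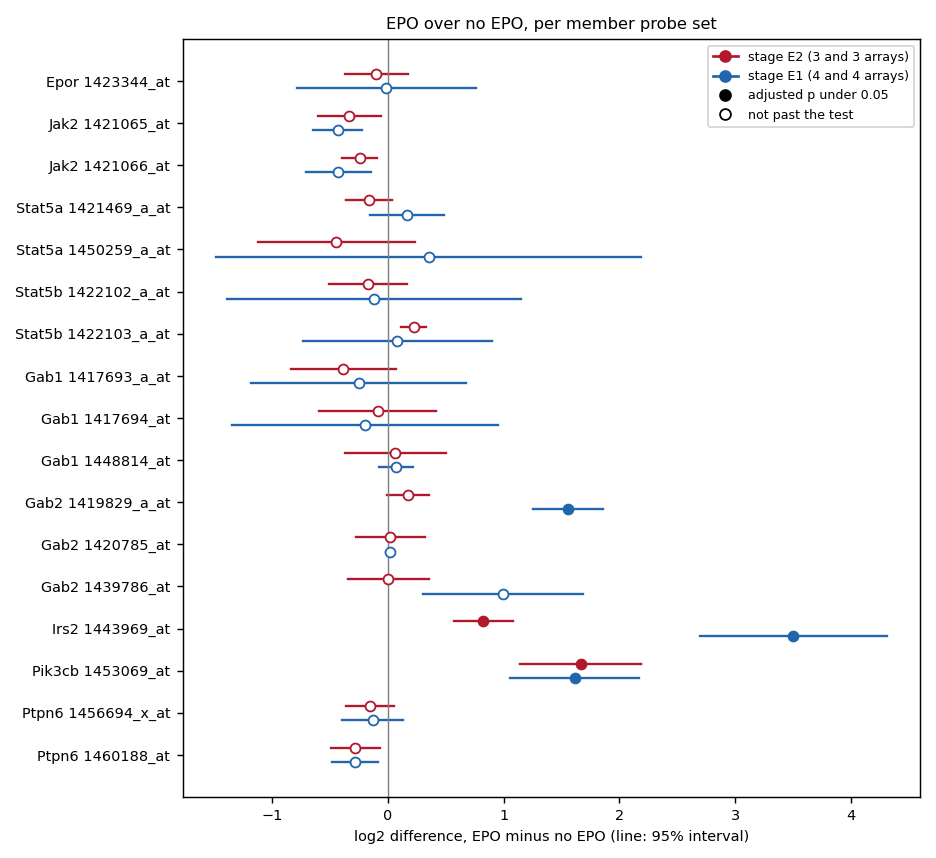
Log2 difference for EPO over no EPO (x axis) with its 95% interval for each member probe set, in stage E2 (upper point) and stage E1 (lower point), filled where the adjusted p was under 0.05. Irs2 and Pik3cb are filled in both stages and Gab2 1419829_a_at in E1, and the intervals of both Jak2 probe sets lie below 0 in both stages.

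Across the stages, 6 of the 17 members passed the test with EPO, 2 higher in E2 (Epor and Ptpn6 1460188_at) and 4 lower (Stat5a 1421469_a_at, Gab2 1419829_a_at and 1439786_at, and Irs2), where 22.3% of all probe sets passed, 10.3% as higher. Without EPO 6 also passed, 3 higher (Epor, Irs2 and Ptpn6 1460188_at) and 3 lower (Jak2 1421066_at, Stat5a 1421469_a_at and Gab2 1419829_a_at), where 20.9% of all probe sets passed, 10.1% as higher. Arrays of the stages did not overlap for 7 members with EPO, 3 higher and 4 lower in E2, where 59.5% of all probe sets were apart, 12.4% higher and 47.1% lower. Without EPO they did not overlap for 7, again 3 higher and 4 lower, where 51% of all were apart, 13.1% higher and 38% lower. The 2 stage differences are taken between separate arrays, but both tests draw their spread from all 14 arrays, so their calls are not independent. Each stage's arrays also enter its EPO comparison.

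**Figure D4:**
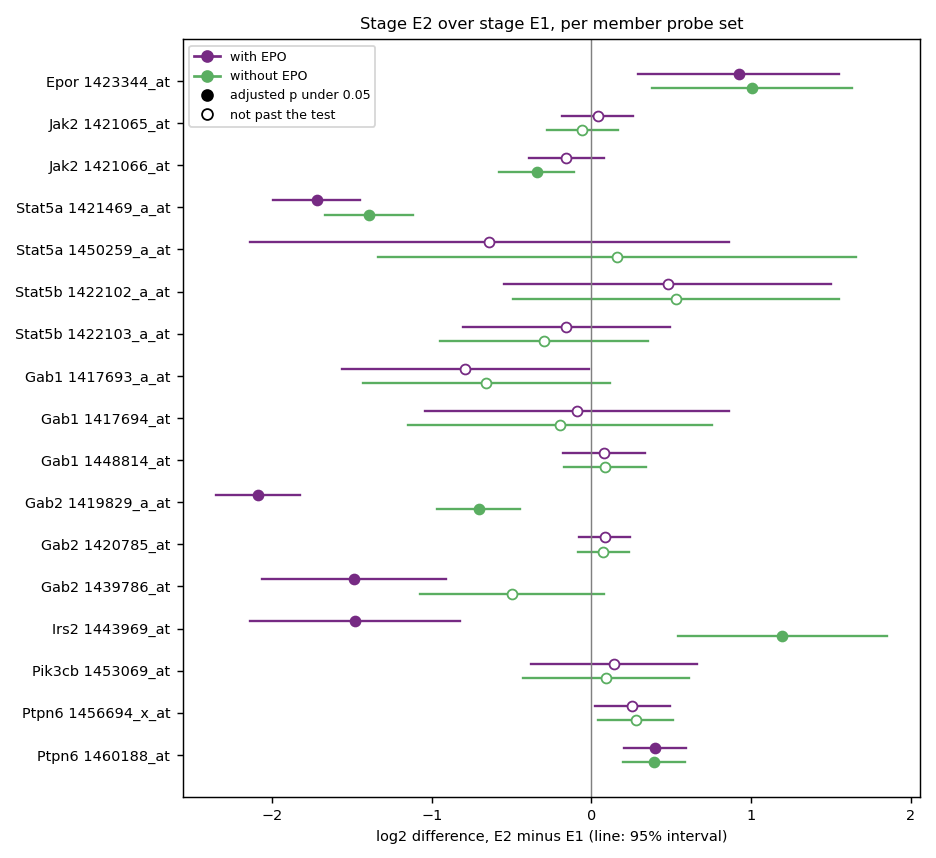
Log2 difference for stage E2 over stage E1 (x axis) with its 95% interval for each member probe set, with EPO (upper point) and without EPO (lower point), filled where the adjusted p was under 0.05. Epor and Ptpn6 1460188_at lie to the right, Stat5a 1421469_a_at and Gab2 1419829_a_at to the left, and Irs2 lies at -1.48 with EPO and at 1.20 without.

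The pathway around the members was read from 85 further genes in 9 lists, of which 73 had 187 probe sets. The lists were chosen with earlier results of these data known. The study had also named Socs2, Socs3 and Cish (as Cis) among its EPO response genes, so the shares below are not independent evidence. With EPO in stage E2, 19 of the 187 rose and 5 fell (12.8%, against 4.62% of all probe sets), and in stage E1 6 rose and 0 fell (3.21%, against 1.16%). At the input of the pathway in E2, Csf2rb, the common beta chain of the interleukin-3 receptor family, rose in both probe sets (0.79, SE 0.11, and 1.13, SE 0.16), as did its relative Csf2rb2 (0.92, SE 0.13). Of the kinases, STATs and adaptors, only Stat3 1460700_at (0.84, SE 0.14), Crk (0.59, SE 0.06) and the ubiquitin ligase Cbl (0.92, SE 0.13) rose in E2, by 1 probe set each, and no Janus or Src family kinase passed in either stage. In the PI3K list, 0 probe sets rose and 4 fell in E2: Pik3ca 1453134_at (-0.69, SE 0.08), both of Pik3cg (-0.32, SE 0.05, and -0.44, SE 0.07) and Inpp5d, the lipid phosphatase SHIP-1 (-0.31, SE 0.03), so that of the 4 catalytic genes Pik3ca, Pik3cb, Pik3cd and Pik3cg the 1 that rose was Pik3cb. In the RAS and ERK list Rasa1 1426476_at rose (0.37, SE 0.06) and Sos1 1421885_at fell (-0.14, SE 0.01) in E2.

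Of the 19 probe sets that rose in E2, 7 were in the list of feedback inhibitors and 5 in that of tyrosine phosphatases, as were 4 and 2 of the 6 in E1. Cish rose by 4.02 (SE 0.07) in E2 and by 5.35 (SE 0.15) in E1, Socs2 by 0.46 to 3.97 in 3 of 6 probe sets in E2 and by 2.87 and 3.84 in 2 in E1, and Socs3 by 4.60 to 5.61 in all 3 probe sets in E2 and by 2.70 in 1 in E1. They are SH2 proteins that bind activated cytokine receptors or JAK2 and damp the signal. Among tyrosine phosphatases, Ptpn12 rose in all 4 probe sets in E2 (0.74 to 1.05) and in 2 in E1 (0.35, SE 0.04, and 0.61, SE 0.09), and Ptpn1, known to dephosphorylate JAK2, rose in 1 of 2 in E2 (0.27, SE 0.03). With the replicate block, Cish alone of the E1 calls in these lists was kept (adjusted p = 0.0206), the others lying between 0.0538 and 0.103. Of the E2 calls in all the pathway lists, the block kept Cish (0.0200), Socs2 1418507_s_at (0.0300) and all 3 of Socs3 (at most 0.0300). It also kept Ptpn12 1422045_a_at (0.0329) and Cbl (0.0403). The other E2 calls, among them Csf2rb, Csf2rb2, Stat3, Crk, Pik3ca, Pik3cg, Inpp5d, Rasa1 and Sos1, were lost (adjusted p from 0.0501 to 0.144). The EPO effect was larger in E2 than in E1 for all 3 Socs3 probe sets (differences of 2.91 to 4.66) and for Socs2 1446085_at (0.46), and smaller for Cish (-1.33, SE 0.19). For Socs2 1418507_s_at and 1449109_at, which rose in both stages, the differences of 0.16 (SE 0.38) and 0.13 (SE 0.41) did not pass. With the replicate block Socs3 kept its calls (adjusted p at most 0.0292), while Socs2 1446085_at (0.133) and Cish (0.0762) did not.

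The genes most like a member in their pattern were sought by the root mean square difference, in log2 units, between values over the 14 arrays with each gene's mean removed, for the 7 member probe sets whose group means span at least 1 log2 unit. The 3 nearest to Gab2 1419829_a_at were Hilpda (0.25), Pvt1 (0.26) and Cluh (0.27), to Irs2 they were Trmt61a (0.65), Gdf3 (0.70) and Treml2 (0.71), and to Pik3cb they were Itprid2 (0.32), Fbxw7 (0.36) and Pcgf3 (0.36). A member's own root mean square about its mean was 0.92 for Gab2, 1.40 for Irs2 and 0.86 for Pik3cb, so Irs2 had no close neighbour. Nearest to Epor were Mrs2, Wrap53 and Ube2s (0.16 to 0.18), and nearest to Stat5a 1421469_a_at were Tmem70, Prpsap1 and Aprt (0.13 to 0.16). These are descriptions over 14 arrays that fall into 4 groups.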

How the data were processed

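RNA of 14 samples, called biological replicates in the labels, was hybridised to Affymetrix mouse arrays, 1 each. The authors made GC-RMA values in GeneSpring. The deposited values are log2 values less 1 constant per probe set, and the base of 2 is inferred. In 35163 probe sets (78%) values of equal size (within 2e-06) flank 0, while 439 have a median of 0 over these 14 arrays, so the constant came from more arrays than these. Expression levels could not be read.

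In limma 3.58.1 (R 4.3.3), 45037 probe sets were tested, 64 controls being left out: EPO on the 6 E2 and the 8 E1 arrays apart, and the stage comparisons and the difference in EPO effect on all 14. Every member probe set is reported by itself. For a member whose group means span at least 1 log2 unit, the 3 nearest probe sets are named. Members and lists were chosen with earlier results of these data known.

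Deviations of same-numbered E1 arrays from their groups' means correlated (0.195, 0.187, 0.173 and 0.152), although EPO replicate 3 correlated best with unchallenged replicate 4 (0.203). The main tests were unpaired, as in the study, and the replicate number entered as a block in an alternative fit only. Alternatives were quantile normalization, centring, the trend and robust settings of limma, weights per array, the replicate block, the 22518 probe sets of largest SD, other sets of arrays, the one-sided test of the methods, and leaving out each array. P-values measure the spread between arrays, whose median SD was 0.0343 (EPO) and 0.0317 (unchallenged) in E2, and 0.0729 (EPO) and 0.0934 (unchallenged) in E1. The calculations were tested on simulated data.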

Additional observations from a re-analysis of the deposited data

Results flagged for a closer look

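In 7 of the 34 member groups of 4 E1 arrays, 1 array stood far from the other 3 (Dixon's test at the 95% level, by which chance marks about 1 in 20 groups). Replicate 1 of the unchallenged E1 arrays was the one for Jak2 1421065_at, at 0.363 against 0.0107 to 0.0669 on the others, for Gab1 1417694_at, at 1.81 against -0.0651 to -0.0054, and for Gab2 1419829_a_at, at 0.20 against 0.674 to 0.712. Replicate 1 of the EPO-challenged E1 arrays was the one for Gab1 1417694_at, at 0.939 against -0.0077 to 0.0198. EPO-challenged replicate 3 stood apart for Gab1 1448814_at, at 0.245 against -0.0111 to 0.012. Unchallenged replicate 3 stood apart for Ptpn6 1456694_x_at, at 0.389 against -0.0263 to 0.0028, and EPO-challenged replicate 2 for Ptpn6 1460188_at, at -0.282 against -0.0705 to -0.0495.

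The EPO effect differed between the stages for Gab2 1419829_a_at (-1.38, E2 minus E1) and for Irs2 1443969_at (-2.68), by the test of the difference itself over all 14 arrays.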

How the results depend on the processing

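Unless named here, the members called for a comparison kept their direction, and centring each array on its median changed no member call. The replicate number as a block left 1 member called for EPO in E2 (417 of all probe sets, Irs2 lost at an adjusted p of 0.0944 and Pik3cb kept at 0.0414), 0 in E1 (61 of all) and 0 for the difference in EPO effect (44 of all). In the stage comparisons the block ended the call of Irs2 without EPO (0.0509), added Gab1 1417693_a_at with EPO (0.0390) and changed no other member call. The deviations of same-numbered arrays had correlations of -0.0609, -0.0567 and -0.0155 in E2. Across the stages these were -0.0754, -0.126 and -0.0509 with EPO, and 0.0586, 0.0126 and 0.042 without. With only 3 arrays in each E2 group, such correlations cannot decide whether same-numbered arrays were paired. Array weights called 6 members for EPO in E1 (both Jak2 probe sets and Gab2 1439786_at added, 1890 of all probe sets), 3 in E2 (Jak2 1421066_at added at 0.0493), 7 for the stages with EPO (Ptpn6 1456694_x_at added at 0.0497, 18996 of all) and 3 for the difference in EPO effect (Gab2 1439786_at added at 0.0349, 869 of all). Testing only the 22518 probe sets with the largest SD added Stat5b 1422103_a_at in E2 (0.0476) and gave 3574 of all in E2 and 839 in E1, with fewer probe sets tested. A fit of all 14 arrays called 1 member in E2 (999 of all; Irs2 lost at 0.357) and 6 in E1 (1695 of all). The one-sided Student test of the methods, unadjusted, called 7 members in E2 (9739 of all) and 8 in E1 (5194 of all), and after adjustment it called the members limma called, 2 in E2 and 3 in E1. Quantile normalization left 1 member for the difference in EPO effect, Pik3cb (1718 of all). It ended the E1 call of Pik3cb (adjusted p = 0.0761) and the stage call of Jak2 1421066_at without EPO (0.183), added Stat5b 1422103_a_at for EPO in E2 (0.0416), Jak2 1421066_at for the stages with EPO (0.0204) and Ptpn6 1456694_x_at with EPO (0.0147) and without (0.00262), and turned the stage difference without EPO round for Irs2 (-0.54) and for Pik3cb (-1.30, adjusted p = 0.00682). Over the 14 arrays this setting puts both stages on the same distribution, so it cannot decide stage differences or the difference in EPO effect. The cause of these changes was not tested. Limma's trend and robust options gave 118 of all for the difference in EPO effect. Using only the 2 groups compared, Epor with EPO (adjusted p = 0.0854) and Irs2 without EPO (0.0902) no longer passed.

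Leaving out each array in turn gave 0 to 1 members for EPO in E2 (834 to 1298 of all probe sets), 2 to 3 in E1 (205 to 501), 5 to 7 for the stages with EPO (7864 to 14731), 3 to 6 without EPO (7115 to 9937) and 1 to 2 for the difference in EPO effect (112 to 331). The 3 without EPO came from leaving out unchallenged E2 replicate 1 or 2. For Pik3cb the uncalled difference in effect ran from -0.14 to 0.19, changing sign in 4 of 14 fits, and its uncalled stage difference without EPO was -0.0084 with the block and -0.0163 to 0.28 with 1 array left out, below 0 without unchallenged E2 replicate 1. Precision is limited by how few arrays there are, and members varied more than most probe sets, with a median SD between replicates of 0.142 (EPO) and 0.122 (unchallenged) in E2, and 0.251 (EPO) and 0.394 (unchallenged) in E1.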

Other observations

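Between the stages, 31 of the 187 probe sets of the surrounding pathway genes were higher in E2 and 23 lower with EPO (28.9%, against 22.3% of all probe sets), and 27 were higher and 30 lower without (30.5%, against 20.9%). Kit, the stem cell factor receptor by which the stages were selected, was lower in E2 in both probe sets (-3.52 and -3.70 with EPO, -2.69 and -3.98 without). Pik3r1, the p85-alpha subunit that binds the catalytic subunits of phosphoinositide 3-kinase, was higher in all 4 probe sets (3.01 to 3.28 with EPO, 2.92 to 4.16 without), while Pik3cd 1453281_at, the leukocyte catalytic subunit, was lower (-1.74 with EPO, -1.23 without). Cish was higher in E2 (2.97 with EPO, 4.31 without). Among docking and adaptor proteins, Dok1 was higher (1.93 with EPO, 1.97 without) and Grb10 1425458_a_at lower (-2.67 with EPO, -2.23 without). Ptprc 1422124_a_at, the leukocyte common antigen CD45, was lower (-3.30 with EPO, -3.97 without), and it moved with the neutrophil and monocyte markers, whose part in it was not tested. Each of these passed limma's test over all 14 arrays in both comparisons.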
